A study of Rattus norvegicus with 14 samples.

Results

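Genes of the major histocompatibility complex (MHC) and of antigen presentation were followed across 4 groups of Noble rats in RNA of the lateral prostate, measured on Affymetrix arrays. Members were chosen by name, with earlier results of these data already known. The rule took every probe set whose symbol starts with RT1-, the prefix of the rat MHC, and 19 further named genes. Of the 16134 probe sets with 1 gene symbol, 52 were members, 35 of them with an RT1- symbol and 17 of the 19 other genes. Psme2 was not analysed here, and no probe set bore the name Nlrc5. By role, the members were 26 class I heavy chains (3 RT1-A, 7 RT1-CE and 16 others), their light chain B2m, 5 class II chains, 4 class II peptide editors, the invariant chain Cd74 and the class II regulator Ciita. The rest were 4 genes of the immunoproteasome and its PA28 activator, 4 of peptide transport, loading and trimming, 2 of lysosomal processing, Cd1d1, and 3 of costimulation. In the RefSeq gene table of assembly GRCr8, 40 of the 52 lie on chromosome 20, and RT1-M10-1 is annotated as a long non-coding RNA.

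The question of the series is what bisphenol A (BPA), a weakly estrogenic building block of plastics, does to the transcriptome of this lobe. Each of the 14 arrays stands for 1 male rat of 48 weeks. The 4 control rats had empty capsules. The 10 treated rats carried Silastic capsules for 32 weeks, all with 30 mg testosterone (T). To this were added 15 mg estradiol in T+E2 (n = 4), 15 mg BPA in T+lowBPA (n = 3) or 320 mg BPA in T+highBPA (n = 3). The labels mention no castration. A group given only testosterone was not analysed here, and a difference from control therefore holds both compounds together. Tests rest on the variation from rat to rat.

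MHC class I molecules, a heavy chain paired with B2m, show peptides from inside the cell to CD8 T cells. The immunoproteasome cuts those peptides, the TAP transporter carries them into the endoplasmic reticulum, ERAP1 trims them and tapasin helps load them. MHC class II molecules, made mainly by macrophages, dendritic cells and B cells, show peptides from endosomes to CD4 T cells, with the invariant chain as their chaperone and CIITA as the factor that switches their genes on. CD80 and CD86 give T cells the second signal. Interferon gamma is the classical inducer of both pathways, and in the prostate leukocytes and epithelium both contribute transcripts.

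Promoter sequences are shown for 7 members as examples, which no single rule selected. RT1-Da, RT1-Ba and Cd74 each had their highest value in control replicate 1 and their lowest in control replicate 4. RT1-A2, Tap1 and Ctss had their highest mean in T+E2, as did Psmb8 and other members that are not shown. B2m, the class I light chain, had its highest mean in T+lowBPA. RefSeq promoters of GRCr8 were held for 45 of the 52 members, and the 250 bases before the start that the promoter table takes were searched on both strands. That start lies inside the gene's span in the RefSeq gene table for 31 of the 45 and at its edge for 14. It lies more than 250 bases inside for RT1-Ha (298), RT1-CE1 (338), RT1-M1-5 (386) and RT1-M1-2 (941). It lies farther inside for Cd80 (1722 bases), RT1-T18 (4800) and Cd86 (21716). The windows of all these genes are within the annotated gene. Of the 7 shown the start lies inside for 5, by 22 bases in RT1-Da, 80 in Ctss, 94 in B2m, 135 in Cd74 and 151 in RT1-A2. The stretch printed for RT1-A2 is wholly within the gene's span. Capitals mark CCAAT (the core of the Y box, bound by NF-Y, written ATTGG on the other strand), TAGCAAC (the core of the X box of class II genes, bound by RFX) and GAAA-NN-GAAA (the core of the element bound by interferon regulatory factors, written TTTC-NN-TTTC on the other strand, N being any base). TAGCAAC was chosen after the sequences of RT1-Da and Cd74 had been seen.
RT1-Da (chr20:4515295-4515395, + strand): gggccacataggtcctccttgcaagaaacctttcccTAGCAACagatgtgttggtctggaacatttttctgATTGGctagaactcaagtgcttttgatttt
RT1-Ba (chr20:4576937-4577037, + strand): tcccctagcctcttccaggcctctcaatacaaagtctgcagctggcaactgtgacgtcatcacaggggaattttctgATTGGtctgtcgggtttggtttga
Cd74 (chr18:56527006-56527146, + strand): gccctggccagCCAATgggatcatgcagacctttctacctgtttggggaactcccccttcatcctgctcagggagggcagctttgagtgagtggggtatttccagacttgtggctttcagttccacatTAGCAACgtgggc
B2m (chr3:129549160-129549280, + strand): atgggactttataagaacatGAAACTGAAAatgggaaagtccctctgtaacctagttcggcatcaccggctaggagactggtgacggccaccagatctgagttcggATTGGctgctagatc
RT1-A2 (chr20:4872751-4872851, + strand): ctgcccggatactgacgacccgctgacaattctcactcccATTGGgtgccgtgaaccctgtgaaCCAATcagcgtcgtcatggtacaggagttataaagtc
Tap1 (chr20:4668603-4668683, - strand): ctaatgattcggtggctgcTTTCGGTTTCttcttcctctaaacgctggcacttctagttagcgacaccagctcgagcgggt
Ctss (chr2:185775296-185775395, + strand): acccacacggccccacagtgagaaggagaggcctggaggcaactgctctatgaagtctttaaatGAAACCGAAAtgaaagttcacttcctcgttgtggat

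CCAAT stood in the window of 9 of 9 class II genes and Cd74 with a promoter in the table, of 15 of 24 class I genes and B2m, and of 34.2% of all 27457 promoters. TAGCAAC was found in 4 of the same 9 (RT1-Da, RT1-Db1, RT1-DOb and Cd74) and in 2.92% of all promoters. In RT1-Da it lay 84 bases before the start, with CCAAT nearer the start at 49. In Cd74 the order was reversed, with TAGCAAC at 72 and CCAAT at 189. Whether a given CCAAT is part of a Y box was not tested. GAAA-NN-GAAA was absent from those 9 windows. It was present in 6 of the 12 promoters of the other members (Tap1, Tap2, Tapbp, Psmb10, Ctss and Cd80), in 4 of the 24 of class I and B2m, and in 3.32% of all promoters. A further pattern that was searched, TTC-NNN-GAA, stood in 3 of the 45 member windows (6.67%), near the 7.56% of all promoters. All of these are matches of letters, and binding was not measured. Those in RT1-Ha, RT1-M1-5 and Cd80 stood in windows within the annotated gene.

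The deposited values are log2 intensities, so a difference of 1 is a 2.0-fold difference, and levels are compared here only within a probe set. Near-identical class I genes can share probes, and the probe design is not given in the sources used here, so single RT1-A, RT1-CE and RT1-M values are uncertain as to the gene they come from. Control replicate 4 stood apart, with a mean correlation of 0.961 with the other controls (other arrays 0.977 to 0.989 within their groups). Secretory genes of the ventral prostate, another lobe, were high in it. Their mean was 10.46 there and 10.63 in T+E2 replicate 2. The T+highBPA arrays were at 9.78, 10.67 and 9.22, and the remaining 9 arrays ran from 6.31 to 8.12. The luminal epithelial markers Krt8, Krt19, Epcam and Cdh1 lay above the array medians over all probe sets (6.38 to 6.46) in every array. Their list mean was 8.73 to 9.92, but Krt8 alone came close to those medians, at 6.49 in T+lowBPA replicate 1. Leukocyte markers (6 genes, Ptprc among them) had a list mean from 8.66 to 9.86 among controls. T+E2 arrays ran from 9.33 to 9.66, T+lowBPA arrays from 9.17 to 9.58 and T+highBPA arrays from 9.22 to 9.54. In such bulk tissue, fewer cells of a type and less RNA per cell cannot be told apart.

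The comparison with the most members at an unadjusted p under 0.05, and the most whose arrays did not overlap, was T+lowBPA against T+E2. There many genes of class I presentation, together with Cd86 and Ctss, had lower means in T+lowBPA. After adjustment few single genes passed in any comparison. In T+lowBPA minus T+E2, 37 of 52 member means were lower, against 44.8% of all genes, with a median difference of -0.14 against 0.02. At an unadjusted p under 0.05, 13 members (25%) were lower, against 5.94% of all genes. After Benjamini-Hochberg adjustment over 16134 genes in limma, 1 member was called lower, Cd86, against 1.75% of all genes. Arrays of the 2 groups did not overlap, with T+lowBPA lower, for 9 members (17.3%), against 6.82% of all genes: RT1-A1, RT1-CE2, RT1-CE5, RT1-DOb, Psmb8, Psme1, Erap1, Ctss and Cd86. For 1 member, RT1-M6-2, T+lowBPA was higher without overlap, against 9.12% of all genes.

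In T+E2 minus control, 43 of 52 member means were higher (52.1% of all genes), with a median of 0.13 against 0.01. There limma called 1 member, Erap1, which was higher, against 3.23% of all genes called in all and 1.76% called higher, and 5 members were higher at an unadjusted p under 0.05, against 8.26% of all genes. Arrays of those groups failed to overlap for 0 members and 9.35% of all genes. Without control replicate 4, 38 of 52 means were higher (53.8% of all genes) and the median was 0.09. In T+highBPA minus T+E2, limma called 2 members lower, Erap1 and RT1-M5, against 3.68% of all genes called lower and 10.2% called in all. At an unadjusted p under 0.05, 7 members were lower, against 13.2% of all genes. Arrays did not overlap for 7 members in the lower direction (14.1% of all genes) and for 1, Cd1d1, in the higher (12.6%). The shares in the lower direction are near those of all genes. In the higher direction they are smaller, with 0 members called against 6.48% of all genes, and 1.92% of members without overlap against 12.6%. The member median was -0.1 against -0.05, and 35 of 52 means were lower (58.1% of all genes).

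Neither BPA group showed a called member against control. In T+lowBPA minus control limma called 0 members and 0.0186% of all genes, with 4 members and 7.59% of all genes at an unadjusted p under 0.05. All 3 of its arrays lay above all controls for 3 members (RT1-M1-5, RT1-M4 and RT1-O1), against 5.59% of all genes. In T+highBPA minus control it called 0 members and 0.0062% of all genes, with 1 member and 8.64% of all genes at an unadjusted p under 0.05. That member, RT1-M5, was also the 1 whose arrays lay below all controls, against 5.13% of all genes. Between the BPA doses (T+highBPA minus T+lowBPA) it called 0 members and 0% of all genes, with 3 members and 14% of all genes at an unadjusted p under 0.05. All arrays of the high dose lay above those of the low dose for 8 members, against 9.61% of all genes, and below them for 1, Tap2, against 15.7%. The F test over the 4 groups called 0 members and 5.19% of all genes, with 7 members and 21.5% of all genes at an unadjusted p under 0.05. Comparisons with a common group share its arrays: 3 of the 6 share the controls, and 3 share T+E2.

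**Figure D1:**
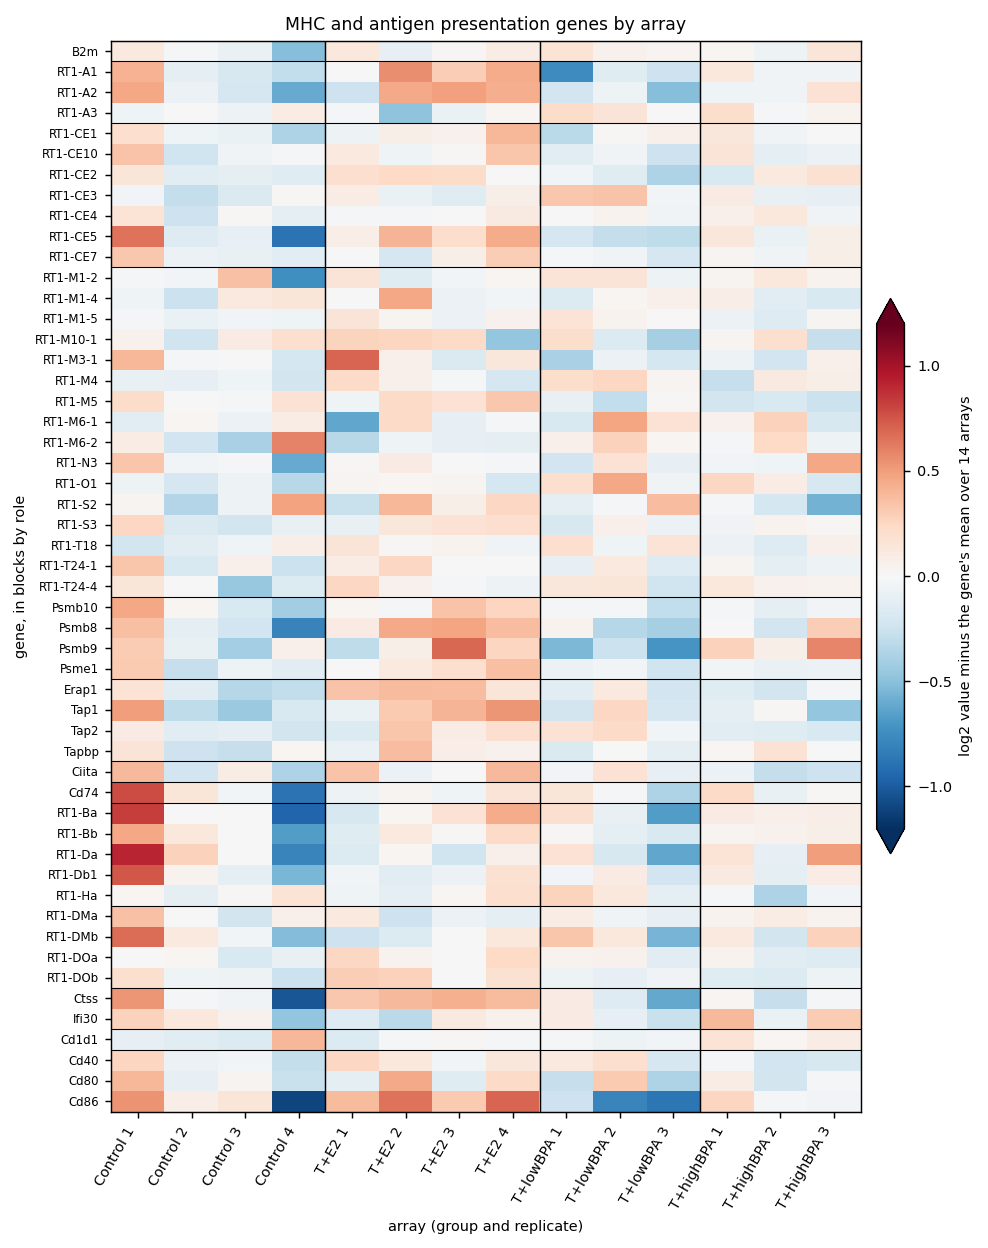
Log2 value of each of the 52 members (one line per gene, blocks by role) minus its mean over the 14 arrays (columns, by group and replicate), red above and blue below the gene's mean. Of the 10 class II genes, Cd74 included, 7 have their highest value in control 1 and 6 their lowest in control 4, and Cd86 is red in all 4 T+E2 arrays and blue in all 3 T+lowBPA arrays.

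Among class I genes the widest group difference was that of RT1-A1, and no comparison of the light chain B2m passed the test. RT1-A1, a classical heavy chain, was at 9.55, 9.02, 8.94 and 8.84 in control, 9.13, 9.69, 9.43 and 9.58 in T+E2, 8.38, 8.99 and 8.89 in T+lowBPA, and 9.26, 9.09 and 9.09 in T+highBPA. All 3 T+lowBPA arrays lay below all 4 T+E2 arrays, and control 1 lay among the T+E2 arrays. T+lowBPA was 1.63-fold lower than T+E2 (difference -0.70, SE 0.18, limma adjusted p = 0.0519), just outside the threshold. That adjusted p ran from 0.0115 to 0.0969 over the other settings tried and from 0.0219 to 0.258 with single arrays left out. Without T+lowBPA replicate 1, its lowest array, the difference was -0.52.

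RT1-A2, also a classical heavy chain, was at 9.89, 9.35, 9.22 and 8.82 in control, 9.17, 9.88, 9.91 and 9.86 in T+E2, 9.19, 9.36 and 8.91 in T+lowBPA, and 9.37, 9.38 and 9.6 in T+highBPA. Its T+E2 arrays split into 3 high ones and 1, replicate 1, within the range of T+lowBPA. The mean was 9.71 ± 0.36 (SD, n = 4) in T+E2 and 9.15 ± 0.23 (SD, n = 3) in T+lowBPA, a difference of -0.55 with an adjusted p of 0.261. RT1-A3 ran the other way. It was at 7.19, 7.24, 7.18 and 7.33 in control, 7.22, 6.76, 7.16 and 7.27 in T+E2, 7.46, 7.4 and 7.24 in T+lowBPA, and 7.45, 7.22 and 7.29 in T+highBPA. Its lowest array was T+E2 replicate 2, and the other groups overlapped. T+lowBPA minus T+E2 was 0.26 (adjusted p = 0.327), T+highBPA minus T+E2 was 0.21 (0.253) and T+E2 minus control was -0.13 (0.582). The last turned to 0.02 without the 3 arrays highest in ventral prostate genes.

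The 7 RT1-CE genes, class I heavy chains of a second cluster on chromosome 20, had higher means in T+E2 than in control for 7 of 7, by 0.03 to 0.41 (6 of 7 without control 4, where RT1-CE5 went from 0.41 to 0.15), and lower means in T+lowBPA than in T+E2 for 6 of 7, by -0.55 to -0.02. None was called. RT1-CE4, the one with the highest mean, was at 8.28, 7.87, 8.13 and 8.01 in control, 8.09, 8.09, 8.11 and 8.22 in T+E2, 8.11, 8.16 and 8.07 in T+lowBPA, and 8.18, 8.24 and 8.07 in T+highBPA. The controls held both its highest and its lowest array. RT1-CE3 was the exception in direction, at 6.83, 6.58, 6.69 and 6.88 in control, 6.96, 6.79, 6.72 and 6.94 in T+E2, 7.19, 7.21 and 6.83 in T+lowBPA, and 6.97, 6.78 and 6.77 in T+highBPA. Its 2 highest arrays were T+lowBPA 1 and 2, and the third lay among the controls. T+lowBPA was above control by 0.33 (adjusted p = 0.534) and above T+E2 by 0.22 (0.416), and T+highBPA was below T+lowBPA (-0.24, 0.396).

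The 16 other class I genes carry RT1-M (9), RT1-T (3), RT1-S (2), RT1-N3 and RT1-O1 symbols and are mostly of unknown role. Their median was 0.1 in T+E2 minus control (range -0.17 to 0.17), -0.04 in T+lowBPA minus T+E2 (-0.4 to 0.27) and -0.09 in T+highBPA minus T+E2 (-0.39 to 0.2). The mean of 10 of them was below 6.46, the lowest median of any array over named genes, so many may be at the background of the array. RT1-M5 was at 5.63, 5.4, 5.39 and 5.58 in control, 5.36, 5.64, 5.58 and 5.73 in T+E2, 5.32, 5.11 and 5.42 in T+lowBPA, and 5.19, 5.23 and 5.15 in T+highBPA. All 3 T+highBPA arrays lay below every control and every T+E2 array. It fell 1.31-fold in T+highBPA against T+E2 (difference -0.39, SE 0.11, limma adjusted p = 0.034), and T+highBPA minus control was -0.31 (0.463). The call was lost without any 1 of 6 arrays, T+E2 2, 3 or 4 or any T+highBPA array (adjusted p 0.0514 to 0.0976), and under quantile normalization (-0.24, 0.244) or cyclic loess (-0.25, 0.202).

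RT1-O1 was at 6.33, 6.19, 6.33 and 6.06 in control, 6.42, 6.41, 6.42 and 6.18 in T+E2, 6.59, 6.85 and 6.35 in T+lowBPA, and 6.64, 6.48 and 6.2 in T+highBPA. Every T+lowBPA array was above every control, the nearest pair being 6.35 and 6.33. The difference was 0.37 in T+lowBPA minus control (adjusted p = 0.547) and 0.21 in T+highBPA minus control (0.677). RT1-S2 was at 5.35, 4.97, 5.26 and 5.8 in control, 5.05, 5.72, 5.39 and 5.57 in T+E2, 5.2, 5.3 and 5.69 in T+lowBPA, and 5.3, 5.11 and 4.75 in T+highBPA. The groups overlapped, and T+highBPA minus control was -0.29 (0.719), or -0.14 (0.782) without control 4.

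B2m, the light chain that every class I molecule needs, was at 13.04, 12.9, 12.85 and 12.42 in control, 13.05, 12.83, 12.94 and 13.02 in T+E2, 13.09, 12.98 and 12.96 in T+lowBPA, and 12.95, 12.87 and 13.07 in T+highBPA. Control replicate 4 was the lowest, and the other 13 arrays ran from 12.83 to 13.09. Its difference from control was 0.16 in T+E2 (95% interval -0.09 to 0.41), 0.21 in T+lowBPA (-0.06 to 0.48) and 0.16 in T+highBPA (-0.1 to 0.43). Without control 4 the same differences were 0.03, 0.08 and 0.04.

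The genes that cut, move and trim class I peptides had higher means in T+E2 than in control for 8 of 8, and lower ones in T+lowBPA than in T+E2 for 7 of 8. Erap1, the aminopeptidase that trims peptides in the endoplasmic reticulum, was at 9.49, 9.19, 8.98 and 9.03 in control, 9.67, 9.71, 9.7 and 9.47 in T+E2, 9.19, 9.44 and 9.1 in T+lowBPA, and 9.18, 9.11 and 9.3 in T+highBPA. Apart from control 1, all arrays of the other groups lay below all 4 of T+E2. It rose 1.38-fold in T+E2 against control (difference 0.46, SE 0.12, limma adjusted p = 0.0446) and fell 1.35-fold in T+highBPA against T+E2 (-0.44, SE 0.13, 0.0407). T+lowBPA minus T+E2 was of like size (-0.39, adjusted p = 0.126).

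Both Erap1 calls lay close to the threshold. The first held with control 1 or T+lowBPA 2 left out and was lost without any 1 of the other 12 arrays (adjusted p 0.052 to 0.132), while the difference stayed at 0.4 to 0.57. The second was lost without any 1 of 8 arrays (control 2, T+E2 1, 2 or 3, T+lowBPA 1 or any T+highBPA array), at adjusted p values of 0.0537 to 0.138. It was also lost when the ventral prostate mean was a covariate (-0.42, 0.0743). Without the 3 arrays highest in ventral prostate genes the adjusted p values were 0.175 and 0.162. The F test gave Erap1 an adjusted p of 0.0691.

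Psmb8, a catalytic subunit of the immunoproteasome, was at 7.28, 6.81, 6.69 and 6.12 in control, 7.02, 7.37, 7.39 and 7.29 in T+E2, 6.96, 6.58 and 6.52 in T+lowBPA, and 6.92, 6.7 and 7.21 in T+highBPA. All T+E2 arrays were above all T+lowBPA arrays, and control 1 was again among the T+E2 arrays. T+E2 minus control was 0.54 (adjusted p = 0.169), and depended on the controls. Without control 1 it was 0.73 and passed the threshold (0.0383), without control 4 it was 0.34 (0.299), and without the 3 arrays highest in ventral prostate genes it was 0.31 (0.416). T+lowBPA minus T+E2 was -0.58 (0.206). Its partner Psmb9 was at 6.71, 6.31, 6 and 6.46 in control, 6.1, 6.47, 7.09 and 6.66 in T+E2, 5.86, 6.15 and 5.7 in T+lowBPA, and 6.68, 6.47 and 6.99 in T+highBPA. Here the high BPA group stood as high as T+E2, and all its arrays lay above all 3 of the low dose.

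For Psmb9 the T+highBPA mean of 6.71 ± 0.26 (SD, n = 3) was 1.75-fold above that of T+lowBPA, 5.90 ± 0.23 (SD, n = 3), the smallest p of any member between the doses (difference 0.81, 95% interval 0.31 to 1.3, limma adjusted p = 0.255). T+lowBPA minus control was -0.47 (0.657), T+lowBPA minus T+E2 was -0.68 (0.125) and T+highBPA minus control was 0.34 (0.684). Of the other 2 genes of this role, Psmb10, the third inducible catalytic subunit, and Psme1, of the PA28 activator, T+E2 minus control was 0.18 and 0.2, the former falling to 0.05 without control 4. All 4 means were lower in T+lowBPA than in T+E2, by -0.68 to -0.26.

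Tap1, one chain of the peptide transporter, was at 7.86, 7.05, 6.91 and 7.17 in control, 7.28, 7.67, 7.76 and 7.89 in T+E2, 7.14, 7.6 and 7.15 in T+lowBPA, and 7.24, 7.37 and 6.89 in T+highBPA. Control 1 and 3 of the T+E2 arrays were the 4 highest. T+E2 minus control was 0.4 (adjusted p = 0.304) and T+highBPA minus T+E2 was -0.49 (0.158). Tap2, the other chain, was at 6.2, 5.97, 5.99 and 5.88 in control, 5.94, 6.44, 6.19 and 6.3 in T+E2, 6.28, 6.33 and 6.07 in T+lowBPA, and 5.97, 5.96 and 5.92 in T+highBPA. All T+highBPA arrays lay below all T+lowBPA arrays, a difference of -0.28 (0.35). For Tapbp, which encodes tapasin, the group means ran from 6.96 to 7.17 and no comparison passed.

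**Figure D2:**
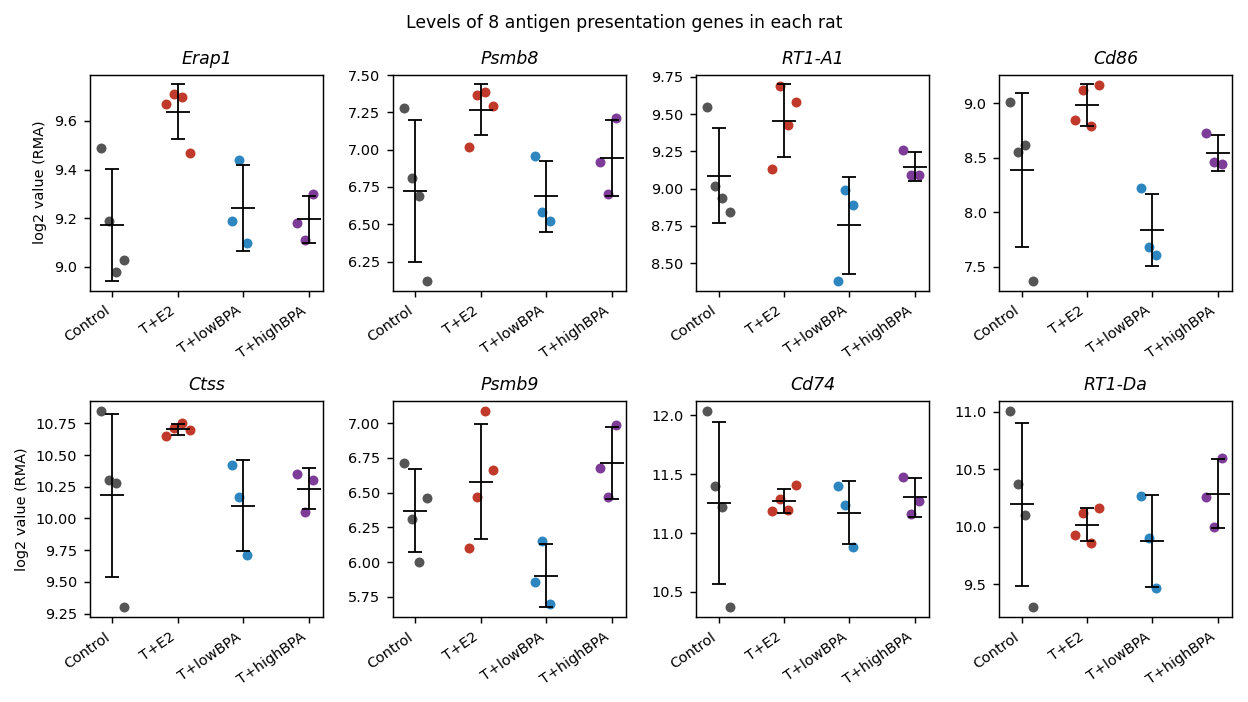
Log2 values of 8 members in each rat (points) by group, with the group mean (long bar) and SD (whiskers), n = 4, 4, 3 and 3. Points of T+E2 sit above those of T+lowBPA without overlap for Erap1, Psmb8, RT1-A1, Cd86 and Ctss, and the control points of Cd74 and RT1-Da spread wider than any group difference.

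Most class II genes ranged widely among the control rats. Their control SD reached 0.73 in RT1-Ba, but was 0.1 in RT1-DOa, 0.12 in RT1-Ha and 0.18 in RT1-DOb. Over the 10 genes (5 chains, 4 editors and Cd74), the median group difference stayed between -0.12 and 0.09 in all 6 comparisons, and none was called. Without control 4 the medians against control were -0.15 in T+E2 (7 of 10 lower), -0.29 in T+lowBPA (8 of 10 lower) and -0.17 in T+highBPA (9 of 10 lower). Cd74, the invariant chain, was at 12.04, 11.4, 11.22 and 10.37 in control, 11.19, 11.29, 11.2 and 11.41 in T+E2, 11.4, 11.24 and 10.88 in T+lowBPA, and 11.48, 11.16 and 11.27 in T+highBPA. The control rats held both the highest and the lowest value, and all other arrays fell between them. The control mean was 11.26 ± 0.69 (SD, n = 4) and the T+E2 mean 11.27 ± 0.10 (SD, n = 4), a difference of 0.01 (95% interval -0.52 to 0.54), or -0.28 (adjusted p = 0.424) without control 4.

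RT1-Da, an alpha chain of the rat counterpart of human HLA-DR, was at 11.01, 10.37, 10.1 and 9.3 in control, 9.93, 10.12, 9.86 and 10.16 in T+E2, 10.27, 9.9 and 9.47 in T+lowBPA, and 10.26, 10 and 10.6 in T+highBPA. RT1-Ba, an alpha chain of the counterpart of HLA-DQ, was at 9.48, 8.65, 8.65 and 7.7 in control, 8.46, 8.67, 8.82 and 9.1 in T+E2, 8.84, 8.56 and 7.98 in T+lowBPA, and 8.75, 8.71 and 8.73 in T+highBPA. For both, control 1 was the highest of 14 arrays, control 4 the lowest, and T+lowBPA 3 the next lowest. No comparison of either passed, and the largest difference was 0.41 for RT1-Da in T+highBPA minus T+lowBPA (adjusted p = 0.569). Without control 4, T+lowBPA minus control was -0.61 for RT1-Da (0.392) and -0.47 for RT1-Ba (0.541).

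Across members, control 1 held the highest of 14 values for 16 of 52 (6.4% of all genes) and for 7 of the 10 class II genes. Control 4 held the lowest for 22 of 52 (14.7% of all genes) and for 6 of the 10. The SD was widest in control for 34 of 52 members (37.2% of all genes), and for 26 with control 4 left out (18.6% of all genes). For the class II genes the median SD was 0.48 in control, 0.14 in T+E2, 0.18 in T+lowBPA and 0.11 in T+highBPA. The mean of the leukocyte markers moved along, at 9.86 in control 1, 9.43 and 9.38 in controls 2 and 3, and 8.66 in control 4. Among these markers Lcp1 went the other way, at 10.28 in control 1 and 10.46, its highest array, in control 4. The interferon gamma signalling list also moved along, at 8.16 in control 1, 7.21 in control 4 and 7.29 to 7.67 elsewhere. Their part in the class II values was not tested. The mean of the ventral prostate list was high in control 4 and low in control 1, within the ranges given above.

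The editors, which exchange or guard class II peptides, showed 2 patterns. RT1-DMa, a chain of the exchange factor, was at 8.26, 7.9, 7.69 and 7.97 in control, 8.03, 7.66, 7.84 and 7.79 in T+E2, 8, 7.87 and 7.81 in T+lowBPA, and 7.95, 8 and 7.95 in T+highBPA. The groups overlapped, and T+E2 minus control was -0.13 (adjusted p = 0.608). RT1-DOb, a chain of the DM inhibitor made mainly in B cells, ran with the class I genes: its mean was 6.41 in T+E2 against 6.18 in control, 6.16 in T+lowBPA and 6.1 in T+highBPA. T+highBPA minus T+E2 was -0.31 (0.0749). B cell markers had a list mean of 6.75 to 7.54 in T+E2 and 6.18 to 6.59 in the BPA groups, with 7 of 7 lower in each BPA group than in T+E2. The controls spanned 5.85 to 7.27 and overlapped both. The part of B cells in the RT1-DOb values was not tested.

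Ciita, the regulator of class II genes, was at 6.26, 5.64, 5.96 and 5.5 in control, 6.21, 5.8, 5.87 and 6.26 in T+E2, 5.83, 6.04 and 5.77 in T+lowBPA, and 5.8, 5.58 and 5.62 in T+highBPA. These values are below the median of the arrays, and the groups overlapped. The lowest p of its 6 comparisons was that of T+highBPA minus T+E2 (-0.37, adjusted p = 0.172).

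Over the 14 rats, Cd74 followed RT1-Da (Pearson r = 0.906, permutation p = 5e-05, adjusted 0.00035 over 7 relations; Spearman rho = 0.842, adjusted p = 0.00224). The relation held on deviations from the group means (r = 0.94, permutation adjusted p = 0.0201) and without controls 1 and 4 (r = 0.776). Cd74 also followed the macrophage gene Cd68, less closely by rank (r = 0.868, permutation p = 0.0001, adjusted 0.00035, with rho = 0.622, adjusted p = 0.0442). For Cd68, r was 0.887 within groups (permutation adjusted p = 0.0273) and 0.668 without the same 2 rats. By rank within groups, rho was 0.701 for Cd68 (permutation adjusted p = 0.0587) and 0.868 for RT1-Da (0.0221). With the pan-leukocyte gene Ptprc it gave r = 0.772 (permutation p = 0.00522, adjusted 0.0122) and rho = 0.6 (adjusted 0.0442). With the B cell gene Cd79a it gave r = 0.665 (permutation p = 0.00749, adjusted 0.0131) and rho = 0.473 (adjusted 0.11). Both rested on controls 1 and 4, without which r was 0.344 and 0.323. The same was true of Ciita, with r = 0.576 (permutation p = 0.0258, adjusted 0.0361) and rho = 0.468 (adjusted 0.11) over all 14 rats and 0.11 without those 2.

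Within the class I path, Psmb8 and Psmb9 gave r = 0.548 (permutation p = 0.0429, adjusted 0.0501) and rho = 0.653 (adjusted 0.0442), with r = 0.443 within groups (0.137). Without control 4 and T+E2 3 their r was 0.662. Tap1 and Psmb9, neighbours on chromosome 20, gave r = 0.391 (permutation p = 0.168, also after adjustment) and rho = 0.433 (adjusted 0.124), with r = 0.573 within groups (0.072). Neither Pearson's r passed the threshold over all 14 rats.

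**Figure D3:**
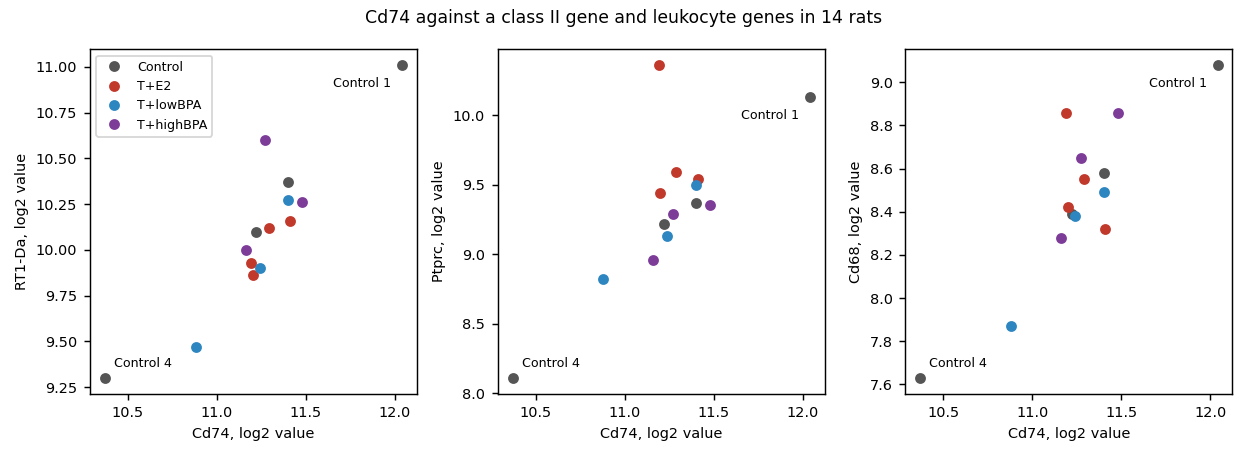
Log2 value of Cd74 (x axis) in each of 14 rats against RT1-Da, Ptprc and Cd68 (y axes, log2), coloured by group. Control 1 lies at the upper right and control 4 at the lower left of each panel, and for RT1-Da and Cd68 the other 12 rats also rise along Cd74 (r = 0.776 and 0.668 without those 2).

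Of the lysosomal genes, Ctss, the cathepsin that degrades the invariant chain, was at 10.85, 10.3, 10.28 and 9.3 in control, 10.65, 10.71, 10.75 and 10.7 in T+E2, 10.42, 10.17 and 9.71 in T+lowBPA, and 10.35, 10.05 and 10.3 in T+highBPA. The 4 T+E2 arrays lay close together and above every BPA array, while the controls spanned the whole range. T+E2 minus control was 0.52 (adjusted p = 0.28), or 0.23 (0.507) without control 4. T+lowBPA minus T+E2 was -0.6 (0.309) and T+highBPA minus T+E2 was -0.47 (0.261). Ifi30, the thiol reductase of the same compartment, was at 8.66, 8.51, 8.44 and 7.91 in control, 8.23, 8.06, 8.5 and 8.44 in T+E2, 8.49, 8.29 and 8.12 in T+lowBPA, and 8.78, 8.31 and 8.69 in T+highBPA. It overlapped between all groups, with T+highBPA minus T+E2 at 0.29 (0.299). That difference passed the threshold with a covariate for the leukocyte mean (0.34, 0.0436) or the ventral prostate mean (0.5, 0.0332).

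Cd86, a ligand of the T cell receptors CD28 and CTLA-4, gave the largest difference of any member. It was at 9.01, 8.55, 8.62 and 7.37 in control, 8.85, 9.12, 8.79 and 9.17 in T+E2, 8.22, 7.68 and 7.61 in T+lowBPA, and 8.73, 8.46 and 8.44 in T+highBPA. The T+lowBPA arrays lay below every array of both other treated groups, and T+highBPA lay between T+lowBPA and T+E2. It fell 2.21-fold in T+lowBPA against T+E2, from 8.98 ± 0.19 (SD, n = 4) to 7.84 ± 0.33 (SD, n = 3) on the log2 scale (difference -1.15, SE 0.29, limma adjusted p = 0.041). T+highBPA minus T+lowBPA was 0.7 (0.335), T+highBPA minus T+E2 was -0.44 (0.331), T+E2 minus control was 0.6 (0.258) and T+lowBPA minus control was -0.55 (0.684). Without control 4, the lowest of all 14 arrays, the last pair were 0.26 (0.438) and -0.89 (0.0814).

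The Cd86 call held with control 1 or control 4 left out (adjusted p 0.024 and 0.000572) and missed the threshold without any 1 of the other 12 arrays (0.0523 to 0.172), the difference staying at -1.34 to -1.03. Under the intensity trend with robust estimation its adjusted p was 0.0545. With the leukocyte mean as a covariate the difference was -0.98 (0.00142), and without the 3 arrays highest in ventral prostate genes it was -1.1 (0.00309). T cell markers were lower in T+lowBPA than in T+E2 for 11 of 11 genes (list means 6.22 to 6.45 against 6.56 to 6.69) and B cell markers for 7 of 7 (6.18 to 6.51 against 6.75 to 7.54), none of them called. Luminal epithelial markers were lower for 4 of 4 (8.73 to 8.87 against 9 to 9.92), with Krt19 called (-1.25, adjusted p = 0.00542). Macrophage markers overlapped (7.45 to 8.04 against 7.74 to 8.03), and so did dendritic cell markers (6.47 to 6.49 against 6.45 to 6.75). Of 6 leukocyte markers 2 were higher, Cd52 among them as called (1.2, 0.00234). No marker of NK cells, basal epithelium, endothelium, fibroblasts, smooth or skeletal muscle or ventral prostate was called there. The part of T cells, B cells and epithelium in the Cd86 difference was not tested.

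Cd80, the other ligand of the same receptors, was at 7.81, 7.31, 7.44 and 7.14 in control, 7.29, 7.86, 7.26 and 7.64 in T+E2, 7.13, 7.72 and 7.04 in T+lowBPA, and 7.5, 7.19 and 7.38 in T+highBPA. Its groups overlapped, with the treated means in the same order as those of Cd86, and T+lowBPA minus T+E2 was -0.22 (95% interval -0.64 to 0.2). Cd40, the receptor through which T cells stimulate antigen-presenting cells, was at 6.94, 6.62, 6.65 and 6.4 in control, 6.93, 6.81, 6.65 and 6.82 in T+E2, 6.8, 6.89 and 6.48 in T+lowBPA, and 6.66, 6.46 and 6.49 in T+highBPA. Its groups overlapped, and T+highBPA minus T+E2 was -0.27 (adjusted p = 0.196). Whether Cd86 differed from Cd80 in response was not tested.

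Cd1d1, which presents lipids to natural killer T cells, was at 8.61, 8.59, 8.55 and 9.11 in control, 8.55, 8.7, 8.73 and 8.69 in T+E2, 8.7, 8.65 and 8.68 in T+lowBPA, and 8.88, 8.74 and 8.8 in T+highBPA. Control 4 was the highest array, against its place as the lowest for many other members. The T+highBPA arrays lay above those of T+E2 and T+lowBPA, by differences of 0.13 each (adjusted p = 0.476 and 0.66).

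**Figure D4:**
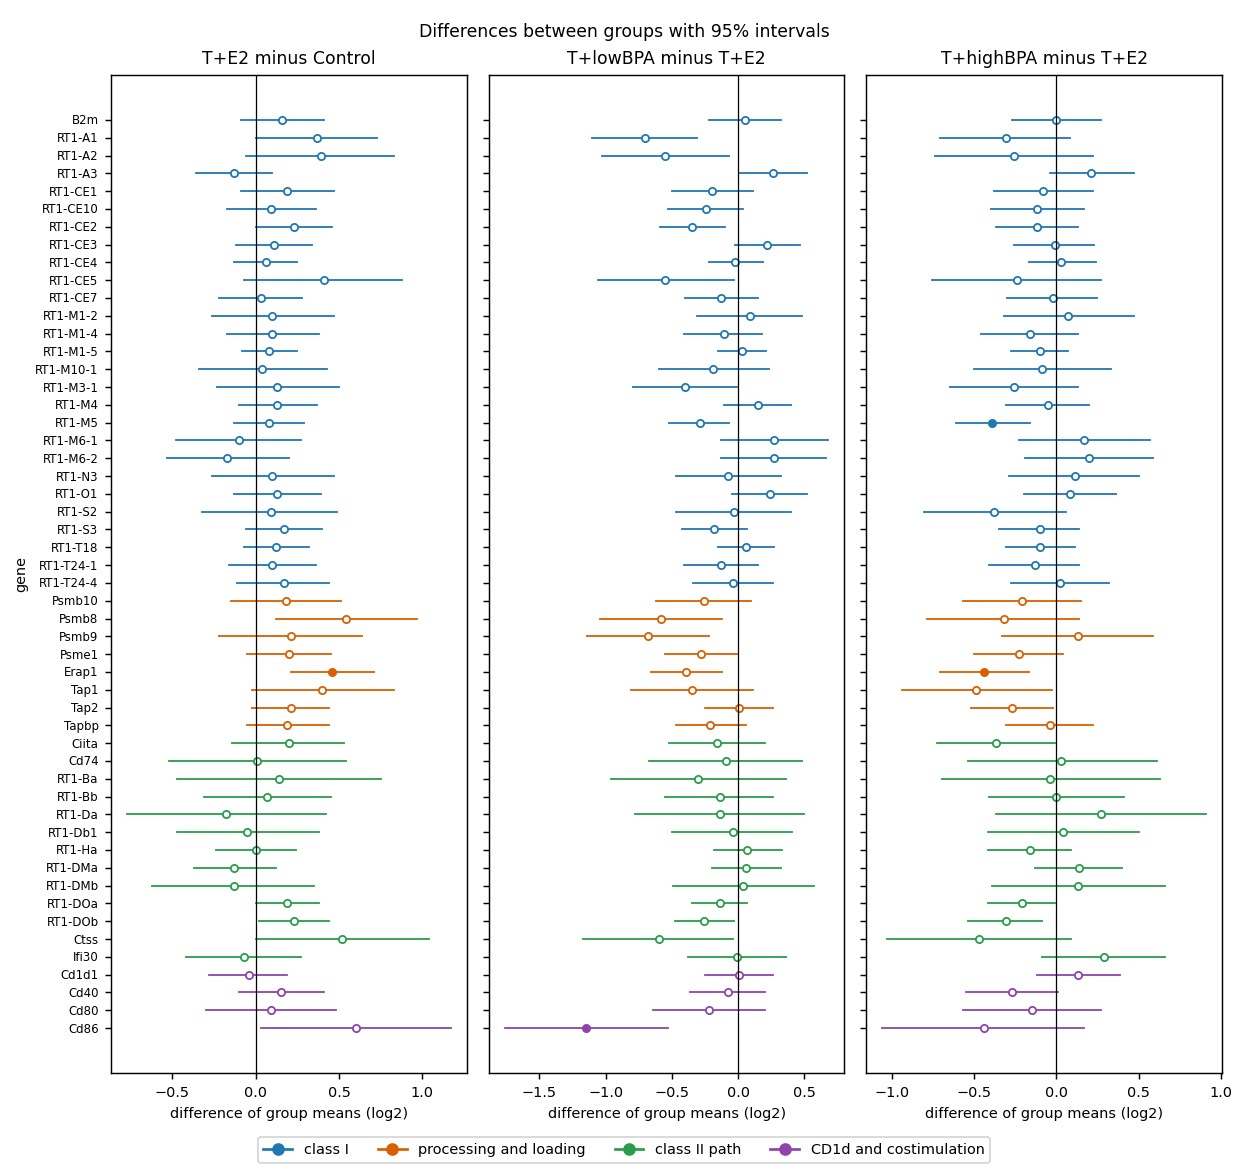
Difference of group means (log2, points) with 95% intervals (lines) for the 52 members in 3 comparisons, coloured by path, filled points passing an adjusted p of 0.05. Filled are Erap1 in T+E2 minus control, Cd86 in T+lowBPA minus T+E2, and RT1-M5 and Erap1 in T+highBPA minus T+E2, and points of T+lowBPA minus T+E2 lie mostly left of 0.

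Of 15 genes of the constitutive proteasome and its other activators, 8 rose and 0 fell in T+highBPA against T+E2, where 6.48% of all genes were called higher. Their median was 0.4 against -0.05 for all genes. The smallest p were those of Psma6, a subunit that both forms of the proteasome share (0.76, adjusted p = 0.00176), and Psmb7, which the immunoproteasome replaces with Psmb10 (0.77, 0.00984). Over the same comparison the 4 members of the immunoproteasome and PA28 had a median of -0.22, with 0 called. Of 6 genes of the endoplasmic reticulum that serve class I assembly and protein import, 3 rose and 0 fell, among them the translocon genes Sec61b (0.87, 0.00508) and Sec61a1 (0.44, 0.037). Of 6 other endolysosomal proteases 1 rose, Ctsd (0.76, 0.0161). The T+highBPA arrays were also the highest group in ventral prostate genes (list means 9.22 to 10.67), and the part of that tissue in these values was not tested.

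Of 13 further costimulatory and checkpoint genes, 1 rose in T+E2 against control (1.76% of all genes), Tnfrsf9, the activation receptor 4-1BB (0.7, adjusted p = 0.00149). In T+highBPA against T+E2, 3 fell (3.68% of all genes), among them Tnfrsf9 (-0.55, 0.00742) and Tnfsf4, the OX40 ligand (-0.53, 0.0063). In T+lowBPA minus T+E2, Tnfrsf9 was at -0.43 (0.0519). Of 15 interferon gamma signalling genes, limma called 0 in each of the 6 comparisons, with 0 to 2 at an unadjusted p under 0.05. Their medians ran from -0.18 in T+lowBPA minus T+E2, where 2 of 15 were higher, to 0.08 in T+highBPA minus T+lowBPA. Of 7 factors that bind MHC promoters, such as Rfx5 and Nfya, limma called 0 in each of the 6 comparisons, with 0 or 1 at an unadjusted p under 0.05.

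The probe set named Cpne2 on the platform carries the gene number that RefSeq now gives to Nlrc5, the class I counterpart of CIITA, so its gene is uncertain and it was not counted as a member. It was at 6.47, 6.24, 6.06 and 6.03 in control, 6.54, 6.65, 6.37 and 6.5 in T+E2, 6.01, 6.27 and 6 in T+lowBPA, and 6.19, 6.2 and 6.14 in T+highBPA. All 4 T+E2 arrays lay above all 6 BPA arrays. T+lowBPA minus T+E2 was -0.42 (adjusted p = 0.059), T+highBPA minus T+E2 was -0.34 (0.0731) and T+E2 minus control was 0.32 (0.131).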

How the data were processed

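Values of 17802 probe sets on 14 arrays, deposited as log2 intensities, were used as given. Per the submitters' processing notes they were made with RMA, which corrects background, normalizes between arrays and summarises probes. The sources used here do not give its version, the probe design or the build. Arrays carry no read depth, and their number limits the precision. Symbols came from the platform annotation, updated through gene numbers of the GRCr8 RefSeq table; 16134 probe sets had 1 symbol, 0 several and 1668 none.

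Members were found by symbol, and groups taken from the labels. Each gene was fitted with limma 3.58.1 in R 4.3.3, 1 coefficient per group, 10 residual degrees of freedom plus 4.13 from the prior, with two-sided tests in 6 comparisons and an F test, each adjusted after Benjamini and Hochberg over 16134 genes. Every adjusted p of a gene is limma's, and called means under 0.05. The fit was tested on simulated data with independent noise. Over the 6 comparisons it called 80.4% to 95.7% of 2-fold changes and 42.5% to 60.6% of 1.5-fold changes. A gene that was not called may therefore still differ. Correlations used 100000 permutations (scipy 1.17.1), adjusted over 7 relations. B2m was not set against Nlrc5, whose symbol the annotation did not hold.

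Described in full are the called members, the 2 with the smallest p in each direction per comparison, and 16 fixed by name or level. Members, 6 pathway lists and 13 marker lists were chosen with earlier results of these data known. Alternatives were another gene filter, normalization, centring, empirical Bayes, array weights, covariates, a replicate block, fewer samples and another threshold. In deviations from the group means, same-numbered arrays correlated above 0.1 in 14 of 19 pairs (from -0.464 to 0.444). Their median was 0.166, against -0.0198 for pairs with different numbers, so structure shared by number is not excluded. The main fit did not take numbers as pairs, and the replicate block was run as an alternative.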

Additional observations from a re-analysis of the deposited data

Results flagged for a closer look

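In 4 of 50 groups of 4 arrays examined, over 25 genes, 1 array lay far from the other 3, and chance gives about 1 in 20. The controls held Cd1d1 at 8.55 to 8.61 in 3 rats and at 9.11 in replicate 4. Erap1 was at 9.47 in T+E2 replicate 4, against 9.67 to 9.71. RT1-A2 was at 9.17 in T+E2 replicate 1, against 9.86 to 9.91. RT1-O1 was at 6.18 in T+E2 replicate 4, against 6.41 to 6.42.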

How the results depend on the processing

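Of 478 values under the other settings that left out no single array, 430 kept their direction and their side of the threshold, or stayed within the spread between replicates or 1.5 times the count. Counts of called members were small and moved often. With each array left out in turn they ran from 0 to 3 in T+E2 minus control, T+lowBPA minus T+E2 and T+highBPA minus T+E2, and from 0 to 2 in the F test. In T+E2 minus control the count was 0 with only the compared groups in the fit and without the 3 arrays highest in ventral prostate genes. In T+lowBPA minus T+E2 it was 2 (Cd86 and RT1-A1) with dim genes left out, cyclic loess, median centring, the ventral prostate covariate or an adjusted p under 0.10, and 3 with array weights, the leukocyte covariate or only the compared groups. In T+highBPA minus T+E2 it was 1 with dim genes left out, cyclic loess, quantile normalization or the replicate block, 5 with the leukocyte covariate and 0 without the 3 arrays. In the F test it was 1 with dim genes left out, the ventral prostate covariate or without the 3 arrays, 2 with the leukocyte covariate or an adjusted p under 0.10, and 5 with array weights. The cause of these moves was not tested, apart from the fewer genes or arrays that some settings hold.

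The median difference of the members was -0.04 in T+highBPA minus T+E2 with dim genes left out, and -0.03 in T+highBPA minus T+lowBPA without T+lowBPA replicate 3 (range over arrays left out -0.03 to 0.1). RT1-A3 in T+E2 minus control turned to 0.02 without the 3 arrays. Without controls 1 and 4, r of Cd74 was 0.11 with Ciita, 0.344 with Ptprc and 0.323 with Cd79a, and within groups Cd74 and Ciita gave 0.71 (permutation adjusted p = 0.0597). With the replicate number as a block, RT1-M5 lost its call (-0.35, adjusted p = 0.0694), and Erap1 and Cd86 kept theirs. Over all genes, calls ran from 222 to 1248 in T+E2 minus control, 0 to 35 and 0 to 235 for low and high BPA minus control, 0 to 18 between the doses, 499 to 904 in T+lowBPA minus T+E2 and 1145 to 2759 in T+highBPA minus T+E2 under the other settings. Groups of 3 or 4 rats and near-identical class I genes limit all values.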
